A study of Homo sapiens with 8 samples.

Results

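Messenger RNA levels were examined for 10 genes of the NF-kB pathway in LX-2 cells, an immortalized human hepatic stellate cell line, after culture on a soft or a stiff matrix. The genes were taken from a list by their role: the 5 subunits (RELA, NFKB1, NFKB2, RELB and REL), 2 inhibitors (NFKBIA and NFKBIE) and 3 feedback targets (TNFAIP3, BIRC3 and TRAF1). The list was chosen with earlier results of these data known. Its counts beside the shares of all genes are therefore a description and no independent test. They make up 10 of the 25369 genes in the deposited tables, and all 10 passed the filter on low counts. RNA-seq had been made of cells on polyacrylamide gel of 2 kPa (soft matrix, close to normal liver) or 40 kPa (stiff matrix, close to cirrhotic liver) for 2 or 4 days. Each of the 4 conditions had 2 libraries, so there were 8. All cells were wild-type LX-2, moved from plastic onto gels coated with fibronectin and grown with serum, and the labels name no cytokine or inhibitor. LX-2 is 1 line, so the libraries say nothing of variation between people. The study describes the libraries of a condition as independent experiments, and the p-values measure the spread between them.

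NF-kB proteins are dimers built from RELA, RELB, REL and the products of NFKB1 and NFKB2, whose precursors p105 and p100 are trimmed to p50 and p52. IkB proteins, such as the one encoded by NFKBIA, hold the dimers in the cytoplasm until a kinase complex marks them for degradation. Freed dimers switch on genes for cytokines and adhesion molecules, and also genes that restrain the pathway, NFKBIA and TNFAIP3 among them. In hepatic stellate cells the pathway is known for inflammatory gene expression and cell survival. The libraries measured mRNA only. Protein level, p100 trimming and entry into the nucleus were not measured, and in bulk RNA fewer expressing cells and less RNA per cell cannot be told apart.

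Several of these genes are themselves known NF-kB targets, so the stretch before the transcription start was searched for NF-kB motifs in RefSeq promoters (table build GRCh38.p14). The table held 14 promoters of 8 of the 10 genes, without RELB and NFKBIE. Each was placed on GRCh37, the build of the files, by its unique exact match. In the 250 bases before the start, 7 promoters of 6 genes (REL, NFKB1, TNFAIP3, NFKB2, BIRC3 and NFKBIA) held the kB consensus on either strand. Among all 35116 promoters of the table, 9.96% held it. The wider pattern GGGNNNNNCC, which covers every match to the consensus, was in 12 of the 14 and in 54.4% of all promoters. The stretches of 5 genes are shown because the results below turn on these genes: BIRC3, NFKBIA and NFKB2 lay lower in both stiff libraries on each day and hold the consensus, TNFAIP3 holds it and was not lower, and TRAF1, which also lay lower, has no match in any of its 3 promoters. They are written 5′ to 3′ on the gene's strand, without bases in exons of the gene, and capitals mark the matches to the consensus. A further match in the NFKB2 promoter runs into an exon and stays in lower case.
BIRC3: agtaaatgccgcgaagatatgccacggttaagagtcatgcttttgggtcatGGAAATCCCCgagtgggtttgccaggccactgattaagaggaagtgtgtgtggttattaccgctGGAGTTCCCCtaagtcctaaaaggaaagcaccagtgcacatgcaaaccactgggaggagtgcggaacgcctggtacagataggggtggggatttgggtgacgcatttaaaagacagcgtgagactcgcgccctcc
NFKBIA: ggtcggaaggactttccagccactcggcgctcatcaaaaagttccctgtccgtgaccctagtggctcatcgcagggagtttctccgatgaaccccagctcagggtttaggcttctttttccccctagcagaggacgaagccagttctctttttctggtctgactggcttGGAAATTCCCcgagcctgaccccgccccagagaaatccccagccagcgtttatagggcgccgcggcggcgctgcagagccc
NFKB2: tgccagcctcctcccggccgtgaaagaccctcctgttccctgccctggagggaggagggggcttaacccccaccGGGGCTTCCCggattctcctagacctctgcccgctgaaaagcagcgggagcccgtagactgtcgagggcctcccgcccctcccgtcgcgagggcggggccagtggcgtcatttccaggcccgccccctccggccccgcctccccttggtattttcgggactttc
TNFAIP3: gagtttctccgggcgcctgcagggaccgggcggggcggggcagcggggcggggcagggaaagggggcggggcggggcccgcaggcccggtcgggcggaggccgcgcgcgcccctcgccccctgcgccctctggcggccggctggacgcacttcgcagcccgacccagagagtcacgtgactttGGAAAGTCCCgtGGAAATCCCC
TRAF1: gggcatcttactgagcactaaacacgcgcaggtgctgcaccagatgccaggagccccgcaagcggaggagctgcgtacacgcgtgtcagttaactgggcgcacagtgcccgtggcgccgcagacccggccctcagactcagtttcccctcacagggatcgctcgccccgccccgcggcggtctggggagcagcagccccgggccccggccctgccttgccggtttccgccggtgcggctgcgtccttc
On GRCh37 the stretches are chr11:102187965-102188214 (BIRC3, forward strand), chr14:35873956-35874205 (NFKBIA, reverse), chr10:104155212-104155449 (NFKB2, the third of its 3 promoters, forward), chr6:138188146-138188350 (TNFAIP3, forward) and chr9:123691452-123691699 (TRAF1, the first of its 3, reverse). A match is a description of letters. It was not tested as a binding site, and the absence of a match says only that the letters are not in this window.

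The genes lie on 8 chromosomes of GRCh37: REL on chromosome 2 from 61108626 to 61158747, NFKB1 on 4 from 103422487 to 103538459, NFKBIE on 6 from 44225903 to 44233525, TNFAIP3 on 6 from 138188351 to 138204451, TRAF1 on 9 from 123664671 to 123691451, NFKB2 on 10 from 104153867 to 104162281, RELA on 11 from 65421070 to 65430561, BIRC3 on 11 from 102188215 to 102210134, NFKBIA on 14 from 35870285 to 35873955 and RELB on 19 from 45504719 to 45541450. The values below are counts over exons of the whole gene. Exons of RELA, TNFAIP3 and BIRC3 overlap those of RELA-DT, WAKMAR2 and ENSG00000288528 on the opposite strand. The strand setting of the counting is not given in the sources used here, so reads in these overlaps cannot be assigned to a strand.

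Library totals lay between 19955975 and 27263935 counts. Of 12 stellate and mesenchymal genes, 8 or 9 reached 1 FPKM (the deposited level per gene length and library size) in each library. DES and LRAT were at or near 0. The list summed to 1657 to 4212 FPKM, of which VIM had 921 to 2938 FPKM. It mixes stellate with general mesenchymal genes, so it is no test of the stellate label. The collagen gene COL1A2 also stayed below 1 FPKM in every library (0.389 to 0.734), beside 83.9 to 171.7 FPKM for COL1A1. COL3A1 was at 0.962 FPKM in stiff 2-day replicate 1. Of 6 biliary and epithelial genes, 2 were at or above 1 FPKM, KRT7 (5.47 to 11.1) and SOX9 (4.76 to 5.998 at 2 and 10.2 to 13.9 at 4 days), while EPCAM and CDH1 were at or near 0, and the list summed to 12.5 to 23.3 FPKM. Of 8 hepatocyte genes only SERPINA1 reached 1 FPKM, and ALB was at or near 0 (sum 1.24 to 2.99). Endothelial markers summed to at most 1.03 FPKM, and PTPRC, the defining leukocyte gene, stayed at or below 0.381 FPKM. The macrophage and leukocyte list (8 genes, 2 of them at 0 in every library and 2 at or above 1 FPKM) summed to 48.7 to 51.5 FPKM in the soft and 57.6 to 58.4 FPKM in the stiff 2-day libraries, and to 56.2 to 56.6 and 61.9 to 66.8 FPKM at 4 days. CD68 made up nearly all of it, at 45.2 to 63.4 FPKM. The part of these shifts in the results was not tested.

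The 4-day libraries from the stiff matrix stood apart from the other pairs. Across all tested genes, their log2 levels differed with a standard deviation of 0.752, against 0.28 to 0.423 in the other 3 conditions. The difference followed gene length: replicate 2 minus replicate 1 had a median of 0.84 on the log2 scale in the shortest decile of genes and -0.56 in the longest decile (Spearman correlation across genes -0.558). The same held among the 10 genes of the pathway, where the difference between these replicates had a Spearman correlation of -0.891 with exon length across 10 genes. Replicate 2 minus replicate 1 was -3.84 for REL, the longest at 7827 bases, and 0.90 for NFKBIE, at 2581 bases. In the soft 4-day libraries the correlation across the 10 genes was 0.806, in the soft 2-day libraries 0.83 and in the stiff 2-day libraries -0.164. The differences of the 10 genes lay between -0.33 and 0.25 in the soft 2-day libraries, between -0.10 and 0.57 in the stiff 2-day libraries and between -0.36 and 0.97 (REL) in the soft 4-day libraries. Genes are not independent replicates, and these correlations share the libraries. For most of the 10 genes, fold changes at 4 days are therefore also given without each stiff library. For NFKB2 and BIRC3 this is done for the averaged value. Calls at 4 days are also given with offsets that remove a smooth length trend from each library. The part of gene length in the results was not tested in any other way.

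**Figure D1:**
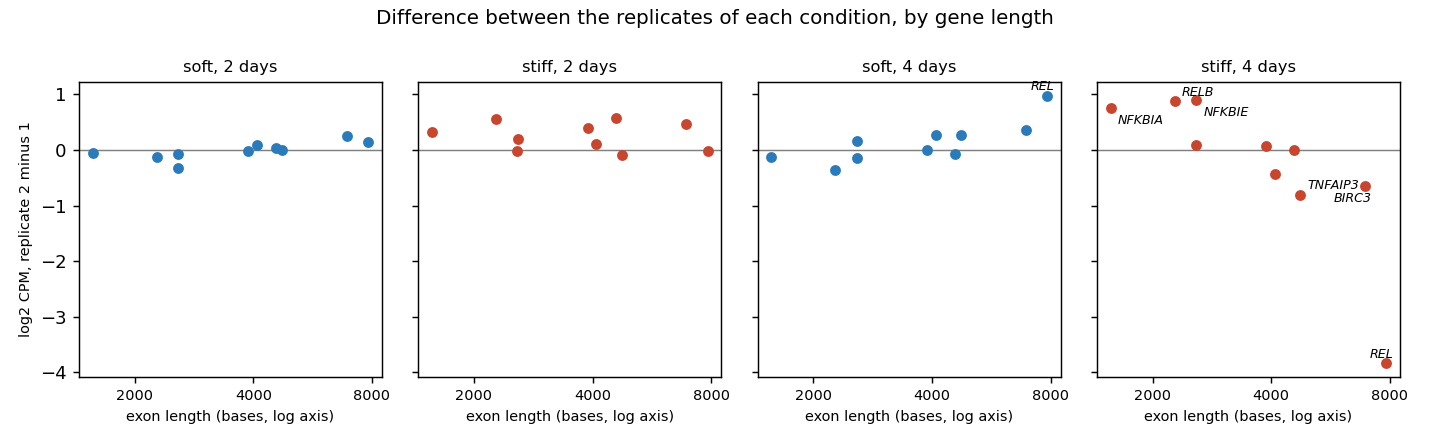
Difference in log2 CPM between replicate 2 and replicate 1 (vertical axis) against exon length in bases (horizontal log axis) for the 10 genes, 1 panel per condition. Points reach 0.25 in the soft 2-day and 0.57 in the stiff 2-day panel, REL lies at 0.97 in the soft 4-day panel, and in the stiff 4-day panel the points run from 0.90 (NFKBIE) down to -3.84 (REL).

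Levels of different genes were set side by side in FPKM, which accounts for gene length. Averaged over the 8 libraries, the order was RELA (52.8 FPKM), NFKBIA (39.9), TNFAIP3 (22.7), NFKB2 (17.3), NFKBIE (13.1), NFKB1 (10.4), RELB (7.55), BIRC3 (5.49), TRAF1 (2.11) and REL (0.676). Levels of 1 gene across libraries are given in CPM, counts scaled to library size after TMM normalization and not to gene length. Only the last steps of this order held in every library: BIRC3 was above TRAF1 and TRAF1 above REL in 8 of 8. Every other neighbouring pair changed places in 1 or 2 libraries. NFKB2 lay above TNFAIP3 in both soft 2-day libraries (23.8 and 23.6 against 22.4 and 22.4 FPKM) and below it in all others. The remaining pairs changed places in only 1 replicate of a condition, so these neighbours were not separated beyond their spread.

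**Figure D2:**
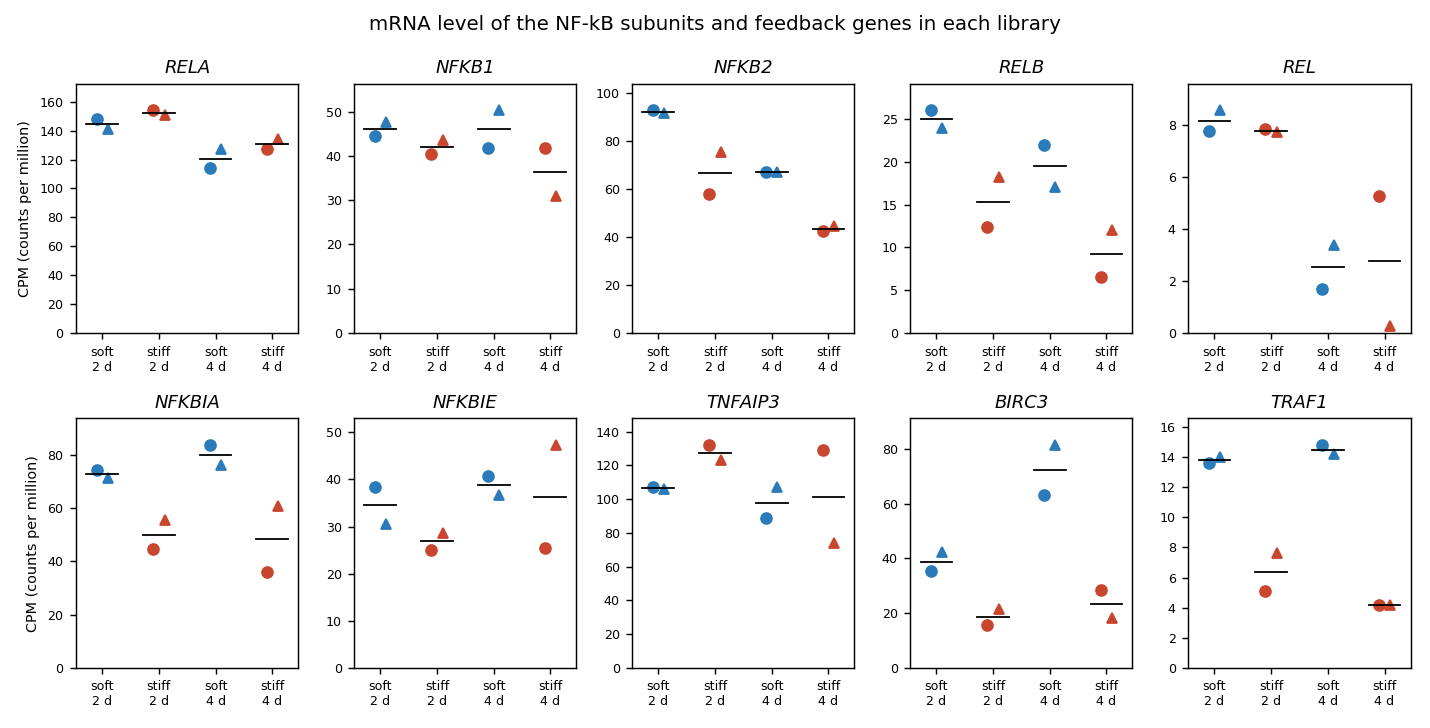
Level of each gene in CPM, normalized by the TMM method (vertical axis, linear, starting at 0), in the 4 conditions. Blue marks the soft and red the stiff matrix, circles are replicate 1, triangles replicate 2, and the black line is the mean of 2 libraries. In NFKB2, RELB, NFKBIA, BIRC3 and TRAF1 both stiff libraries lie below both soft libraries on each day, and in RELA, TNFAIP3, REL, NFKB1 and NFKBIE they do not on both days.

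The first question was whether the pathway's own genes differed between the stiff and the soft matrix. Their log2 fold changes averaged over both days formed a range, from -1.46 (TRAF1) to 0.16 (TNFAIP3). On both days, both stiff libraries lay below both soft libraries in 5 of the 10 genes: NFKB2, RELB, NFKBIA, BIRC3 and TRAF1. Among all 14570 genes tested, 6.14% showed this on both days. Outside these 5, NFKB1 and NFKBIE had averaged values of -0.24 and -0.23. Their stiff libraries lay below the soft ones at 2 days and overlapped them at 4 days. On the averaged effect of both days, TRAF1 and BIRC3 passed the test (adjusted p under 0.05 in the edgeR quasi-likelihood fit, adjusted by Benjamini-Hochberg over all genes), against 0.426% of all genes, and both were lower. At an unadjusted p under 0.05, 5 of 10 were lower and 0 higher, against 4.75% and 2.95% of all genes. The median log2 fold change of the 10 genes was -0.39, beside 0.02 for all genes tested.

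At 2 days, 0 of the 10 genes passed the adjusted threshold, as did 0.0% of all genes in this fit. NFKB2, RELB, BIRC3 and TRAF1 were lower at an unadjusted p under 0.05 (4 of 10, against 1.78% of all genes), while 0 were higher, against 1.04%. DESeq2 called TRAF1, against 0.196% of all genes. Without overlap between the libraries, 7 of 10 were lower on the stiff matrix, where 22.4% of all genes were, and 2 of 10 (RELA and TNFAIP3) were higher, where 25.7% were. When the stiff 4-day libraries were left out of the fit, an alternative added after the data were seen, RELB, NFKBIA, BIRC3 and TRAF1 passed at 2 days, all lower, with log2 fold changes of -0.71, -0.55, -1.08 and -1.12 and adjusted p of 0.0419, 0.0335, 0.00108 and 0.00168 by edgeR. In that fit 0.814% of all genes passed. The fold changes were nearly those of the fit of all 8 libraries, and the standard errors were smaller (0.154 against 0.26 for BIRC3).

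At 4 days, TRAF1 passed the adjusted threshold (1 of 10, against 0.247% of all genes). At an unadjusted p under 0.05, 5 of 10 were lower, against 4.32% of all genes, and the same 5 did not overlap between the matrices, against 14.0%. Leaving out stiff replicate 1 gave 7 calls, with a share of all genes of 31.1%, and leaving out stiff replicate 2 also gave 7, with a share of 3.63%. NFKB2, RELB, BIRC3 and TRAF1 were called lower in both of these fits, while REL was called in opposite directions. With the length offsets, NFKBIA, BIRC3 and TRAF1 passed, against 0.81% of all genes.

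**Figure D3:**
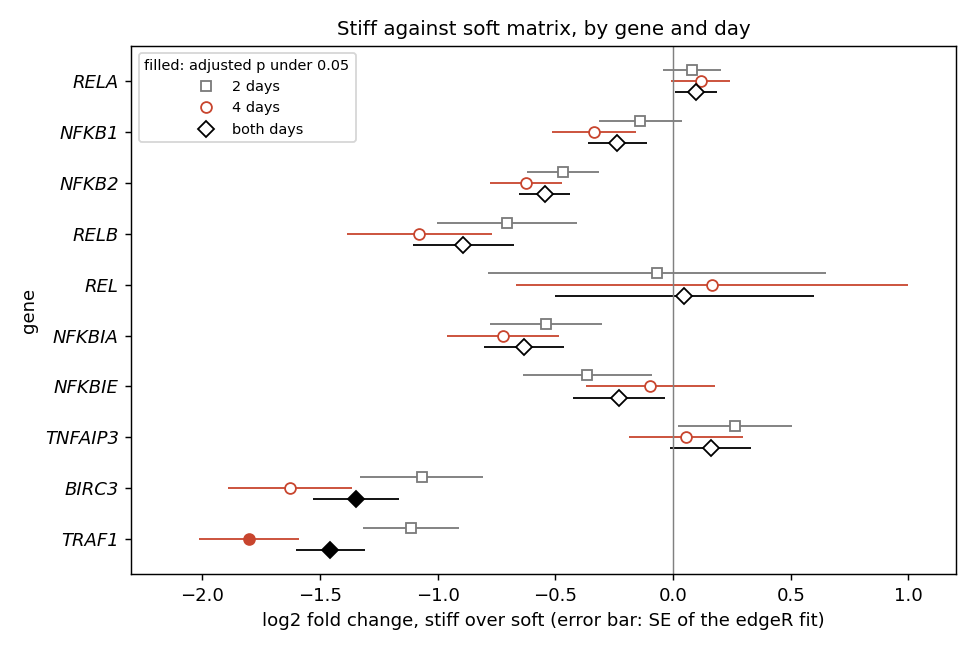
Log2 fold change of the stiff over the soft matrix (horizontal axis) with its standard error in the edgeR fit, for each gene at 2 days (squares), at 4 days (circles) and averaged over both days (diamonds), and filled where the adjusted p was under 0.05. The filled symbols are TRAF1 at 4 days and averaged and BIRC3 averaged, and RELA, REL and TNFAIP3 lie around 0.

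Among the subunits, NFKB2 and RELB, which form the dimer of the non-canonical pathway, lay lower on the stiff matrix, and RELA did not. NFKB2, which encodes p100 and p52, had 92.8 and 91.6 CPM in the soft and 57.8 and 75.6 CPM in the stiff 2-day libraries. At 4 days it had 67.1 and 67.2 CPM on the soft and 42.6 and 44.5 CPM on the stiff matrix. The 4-day replicates of each matrix nearly coincided, and the stiff values lay clearly below. Its log2 fold change was -0.47 ± 0.15 (SE, n = 2 per condition) at 2 days and -0.62 ± 0.15 at 4 days. The averaged value of -0.55 missed the threshold in the edgeR quasi-likelihood fit (adjusted p = 0.122), and adjusted p ranged from 0.00141 to 0.701 over 19 other settings. It moved little without stiff 4-day replicate 1 (-0.53) or 2 (-0.56).

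RELB, the partner of p52, had 26.0 and 23.9 CPM in the soft and 12.4 and 18.2 CPM in the stiff 2-day libraries. At 4 days the soft libraries had 21.9 and 17.1 CPM and the stiff libraries 6.53 and 12.0 CPM. The groups did not overlap on either day, but the stiff replicates of each day were wide apart. Its log2 fold changes were -0.70 ± 0.30 and -1.08 ± 0.31 (SE, n = 2 per condition). The averaged value of -0.89 did not pass (adjusted p = 0.213, edgeR). Without stiff replicate 1 the 4-day value was -0.69, and without replicate 2 it was -1.57, so the size at 4 days depended on which library was kept.

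RELA, the main activating subunit of the canonical pathway, had 148 and 141 CPM on the soft and 154 and 151 CPM on the stiff matrix at 2 days. At 4 days it had 114 and 127 CPM on the soft and 127 and 134 CPM on the stiff matrix. The stiff libraries were slightly higher at 2 days and met the soft ones at 4 days. The averaged log2 fold change was 0.10 ± 0.09 (SE), and it was between 0.004 and 0.139 in 19 other settings, none of which called it. NFKB1, the source of p105 and p50, ranged from 40.4 to 47.7 CPM at 2 days and from 31.0 to 50.3 CPM at 4 days. Its averaged log2 fold change was -0.24 ± 0.13 (adjusted p = 0.771, edgeR). Without stiff 4-day replicate 1 the 4-day value of -0.34 became -0.56 and was called, and without replicate 2 it was -0.13.

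REL, which encodes c-Rel, a subunit best known from lymphoid cells, was the lowest of the 10 genes. It had 220 and 238 counts in the soft and 187 and 184 in the stiff 2-day libraries, 36 and 75 in the soft 4-day libraries and 107 and 5 in the stiff 4-day libraries. The stiff 4-day replicates lay on either side of the soft ones. The log2 fold change at 4 days, 0.16 ± 0.83, turned to -3.11 without stiff replicate 1 and to 1.06 without stiff replicate 2, so no direction could be given for REL. Its exons also overlap those of ENSG00000267520 on the same strand.

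As shares of the summed FPKM of the 5 subunit genes, RELA took 54.9 and 53.9% in the soft and 65.7 and 60.0% in the stiff 2-day libraries. At 4 days its share was 54.1 and 56.7% on the soft and 66.5 and 68.1% on the stiff matrix. RELA thus held more of the subunit mRNA in each stiff library than in any soft library, with 4 libraries on each side. NFKB2 held 20.0 to 23.2% in the soft and 14.9 to 19.9% in the stiff libraries, and RELB held 8.67 to 11.8% and 3.89 to 8.19%, so neither overlapped between the matrices, NFKB2 only just. The shares of NFKB1 (10.4 to 14.2% and 9.95 to 13.9%) and REL (at most 1.1%) overlapped. The summed level was 80.9 to 104 FPKM in the soft and 73.3 to 97.9 FPKM in the stiff libraries. Shares within 1 library are bound to each other, since a lower share of one gene raises the others, and no test was made with 2 libraries per condition. The genes differ in length, so a length trend of a library can enter its shares. Between stiff 4-day replicates 1 and 2, NFKB1 went from 13.9 to 9.95% and REL from 0.909 to 0.048%. The part of gene length in the shares was not tested.

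**Figure D4:**
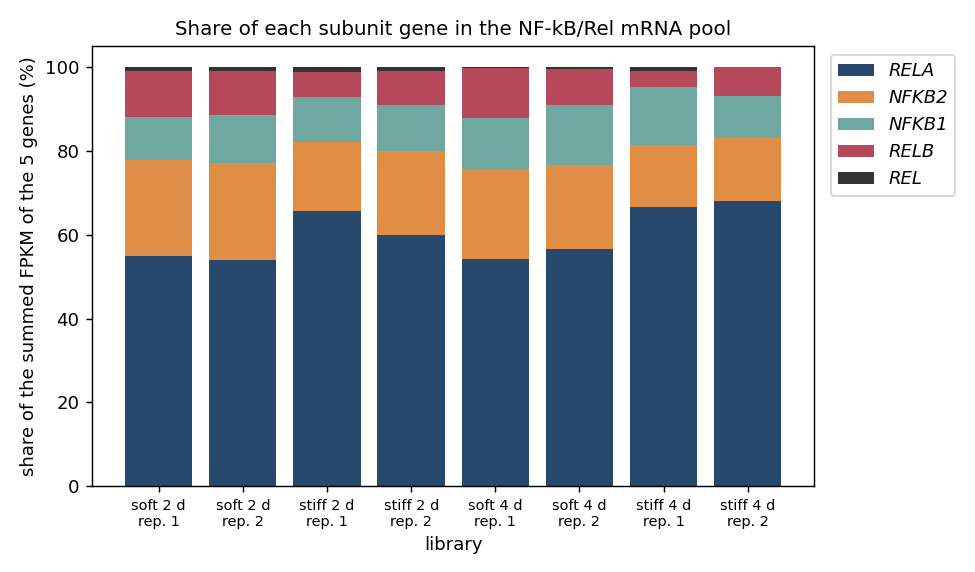
Share of each subunit gene in the summed FPKM of the 5 subunit genes (vertical axis, percent), 1 bar per library. The RELA part reaches 53.9 to 56.7% in the soft libraries and 60.0 to 68.1% in the stiff libraries, and the NFKB2 and RELB parts are narrower in the stiff libraries.

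The inhibitors gave different patterns. NFKBIA, which encodes IkB alpha and is itself induced by NF-kB, had 74.3 and 71.6 CPM on the soft and 44.6 and 55.7 CPM on the stiff matrix at 2 days. At 4 days the values were 83.8 and 76.3 CPM on the soft and 36.2 and 60.9 CPM on the stiff matrix. All 4 stiff libraries lay below all 4 soft libraries. The log2 fold changes were -0.54 ± 0.24 and -0.72 ± 0.24 (SE, n = 2 per condition), and the averaged -0.63 ± 0.17 had an adjusted p of 0.282 by edgeR. NFKBIA passed on the averaged effect with DESeq2 (adjusted p = 0.0491), with the length offsets (0.0146) and without either stiff 4-day library. The 4-day value was -0.39 without stiff replicate 1 and -1.13 without replicate 2.

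NFKBIE, which encodes IkB epsilon, had 38.5 and 30.6 CPM on the soft and 25.0 and 28.7 CPM on the stiff matrix at 2 days. In the 4-day libraries it had 40.8 and 36.8 CPM on the soft and 25.4 and 47.3 CPM on the stiff matrix, where the stiff replicates enclosed the soft ones. Its log2 fold change was -0.36 ± 0.28 at 2 days and -0.10 ± 0.28 at 4 days. Without stiff replicate 1 the 4-day value turned to 0.30, and without replicate 2 it was -0.60.

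Of the feedback targets, BIRC3 and TRAF1 were lower on the stiff matrix and TNFAIP3 was not. TRAF1, an adaptor of TNF receptors that is induced by NF-kB, had 13.6 and 14.0 CPM on the soft and 5.12 and 7.62 CPM on the stiff matrix at 2 days. At 4 days it had 14.8 and 14.2 CPM on the soft and 4.17 and 4.15 CPM on the stiff matrix, from 72 to 318 counts. The matrices were far apart on both days, and the replicates agreed except at 2 days on the stiff matrix. Its log2 fold change was -1.11 ± 0.20 at 2 days (adjusted p = 0.545) and -1.80 ± 0.21 at 4 days (adjusted p = 0.0261, edgeR quasi-likelihood, Benjamini-Hochberg adjusted). The averaged value of -1.46 ± 0.15 passed as well (adjusted p = 0.011), and adjusted p ranged from 1.6e-12 to 0.131 over 19 other settings. Without stiff 4-day replicate 1 or 2 the 4-day value was -1.80 or -1.79, as large as with both. The 4-day call was lost without soft 2-day replicate 1 (adjusted p = 0.119) or 2 (0.114) and without soft 4-day replicate 1 (0.258) or 2 (0.183), while the value stayed between -1.83 and -1.76. The averaged call was lost without each of these 4 libraries (0.0678 to 0.131) and without stiff 2-day replicate 1 (0.0657).

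BIRC3 encodes cIAP2, a ubiquitin ligase that restrains cell death and the non-canonical pathway. It had 35.4 and 42.2 CPM on the soft and 15.5 and 21.5 CPM on the stiff matrix at 2 days. At 4 days the soft libraries had 63.3 and 81.4 CPM and the stiff libraries 28.5 and 18.3 CPM. Every stiff library lay below every soft library. The log2 fold changes were -1.07 ± 0.26 (adjusted p = 0.976) and -1.63 ± 0.26 (adjusted p = 0.0775), and the averaged value was -1.35 ± 0.18, which passed (adjusted p = 0.0319, edgeR quasi-likelihood). Without stiff 4-day replicate 1 or 2 the averaged value was -1.52 or -1.20, called in both. The averaged call was lost without any 1 of the other 6 libraries, with values between -1.47 and -1.24 and adjusted p between 0.0982 and 0.253.

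TNFAIP3, which encodes the ubiquitin-editing inhibitor A20, had 107 and 106 CPM on the soft and 132 and 123 CPM on the stiff matrix at 2 days. At 4 days it had 88.7 and 107 CPM on the soft and 129 and 74.0 CPM on the stiff matrix, with the stiff replicates on either side. Its log2 fold change was 0.26 ± 0.24 at 2 days and 0.06 ± 0.24 at 4 days, and the averaged value of 0.16 ± 0.17 had an adjusted p of 0.928 by edgeR. Its 4-day direction followed the library kept, at -0.39 without stiff replicate 1 and 0.41 without replicate 2, and it turned to -0.04 without scaling factors.

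On the averaged effect of both days, other settings called more of the genes, all lower on the stiff matrix unless named. DESeq2 called NFKB2, RELB, NFKBIA, BIRC3 and TRAF1, against 1.44% of all genes, and the length offsets called the same 5, against 1.43%. Without stiff 4-day replicate 1, 7 genes passed, against 19.8% of all genes, and without replicate 2 also 7, against 6.83%, TNFAIP3 then being higher.

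The next question was whether the stiffness effect changed from 2 to 4 days. None of the 10 genes passed the test of this change (0 of 10, and 0.0% of all genes, by edgeR, and 0 of 10, and 0.015% of all genes, by DESeq2). At an unadjusted p under 0.05, 1 gene did, against 1.17% of all genes in the lower direction. It was TRAF1, whose effect was -0.69 ± 0.29 (SE) on the log2 scale at 4 days relative to 2 days (adjusted p = 1 by edgeR). Leaving out stiff 4-day replicate 1 called REL, NFKBIE, TNFAIP3 and BIRC3, in a fit where 20.9% of all genes passed. Of these, REL, NFKBIE and TNFAIP3 are those whose stiff 4-day replicates enclosed the soft ones.

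Between 2 and 4 days, few of these genes passed. On the soft matrix 1 of 10 was called, against 27.4% of all genes. That gene was BIRC3, which rose from 38.8 ± 4.80 to 72.3 ± 12.8 CPM (SD, n = 2), a log2 fold change of 0.90 ± 0.25 (SE, adjusted p = 0.0354 by edgeR). The call was lost without any 1 of the soft libraries or of the stiff 2-day libraries (adjusted p 0.056 to 0.234). On the stiff matrix 1 of 10 was called, against 27.6% of all genes. It was NFKB2, which fell from 66.7 ± 12.6 to 43.6 ± 1.34 CPM (SD, n = 2), a log2 fold change of -0.61 ± 0.15 (adjusted p = 0.0235). On the soft matrix NFKB2 went from 92.2 ± 0.87 to 67.1 ± 0.0595 CPM, a log2 fold change of -0.46 (adjusted p = 0.0597). The stiff call was lost without stiff 2-day replicate 2 (-0.41, adjusted p = 0.211) and without either soft 2-day library (0.0561). REL had fewer counts at 4 days in all 4 libraries, with log2 fold changes of -1.68 ± 0.78 and -1.45 ± 0.78 on the soft and the stiff matrix, which did not pass (adjusted p = 0.144 and 0.2). Without the stiff 4-day libraries the soft value was -1.70 ± 0.23 and passed (adjusted p = 5.53e-06 by edgeR), as did 54.4% of all genes in that fit. The stiff value was -4.73 without stiff 4-day replicate 1 and -0.57 without replicate 2.

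The wider pathway was described with 4 lists of genes, by counts and medians. These lists too were chosen with earlier results of these data known. The 8 other inhibitors and nuclear IkB proteins and the 23 kinases and adaptors, which carry the signal from receptor to IkB, held 0 called genes on stiffness at 2 days, at 4 days and averaged by edgeR, and 0 by DESeq2. Of all genes, at most 0.426% passed these comparisons by edgeR and at most 1.44% by DESeq2. At an unadjusted p under 0.05 on the averaged effect, 1 of 8 and 2 of 23 were lower and 0 of 8 and 1 of 23 higher, against 4.75% and 2.95% of all genes. Their median averaged log2 fold changes were -0.05 and -0.006, beside 0.02 for all genes. Of 19 receptors and ligands, 15 were tested (not TNF, LTA, LTB and TNFSF11), with a median of -0.39 and 1 called gene, IL1B, against 0.426% of all genes. At an unadjusted p under 0.05, 7 of 15 were lower and 0 higher. DESeq2 called IL1A and IL1B, both lower, against 1.44% of all genes. IL1B encodes a cytokine that activates the pathway, and it had 42.4 and 54.1 CPM on the soft and 19.7 and 23.7 CPM on the stiff matrix at 2 days, and 45.7 and 48.8 against 36.6 and 36.3 CPM at 4 days. Its averaged log2 fold change was -0.76 ± 0.12 (adjusted p = 0.0474 by edgeR), and it passed in 8 of 19 other settings.

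Many of the other target genes lay lower on the stiff matrix. Of 21 listed, 19 were tested (not CCL20 and SELE), and 5 were called at 4 days (against 0.247% of all genes) and 9 on the averaged effect (against 0.426%), all lower, with a median averaged log2 fold change of -1.18. The averaged value was above 0 in 4 of the 19. At an unadjusted p under 0.05 on the averaged effect, 15 were lower and 1 higher, against 4.75% and 2.95% of all genes. At 2 days 0 of 19 were called by edgeR, while 12 were lower and 0 higher at an unadjusted p under 0.05, against 1.78% and 1.04% of all genes. DESeq2 called 5 at 2 days, 11 at 4 days and 12 on the averaged effect, all lower, against 0.196%, 1.08% and 1.44% of all genes. CXCL8, the neutrophil chemokine interleukin 8, had 105 and 122 CPM on the soft and 32.8 and 49.8 CPM on the stiff matrix at 2 days. At 4 days it had 261 and 242 CPM against 66.2 and 63.7 CPM, and its averaged log2 fold change was -1.71 ± 0.14 (adjusted p = 0.00634). The adhesion molecule VCAM1 had 402 and 445 counts on the soft and 25 and 5 counts on the stiff matrix at 4 days (log2 fold change -4.62 ± 0.48, adjusted p = 0.0153). Its size rests on few counts: it was -6.04 without stiff replicate 1, -3.97 without stiff replicate 2 and -2.51 with limma on log2(FPKM + 1). It passed in 13 of 19 other settings, and not without any 1 of the 4 soft libraries. The transcription factor gene IRF1 had 39.5 and 37.5 CPM on the soft and 17.2 and 18.4 CPM on the stiff matrix at 4 days (-1.11 ± 0.15, adjusted p = 0.0362). CSF2, a myeloid growth factor gene, and CSF1, its macrophage counterpart, differed by -2.13 ± 0.27 and -1.41 ± 0.20 at 4 days (adjusted p = 0.0331 and 0.0418, edgeR). ICAM1, an adhesion molecule, was called on the averaged effect at -1.31 ± 0.16 (adjusted p = 0.02). CXCL8 passed on the averaged effect in 17 of 19 other settings, and at 4 days CXCL8 passed in 14 and CSF1 in 8 of 20.

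**Figure D5:**
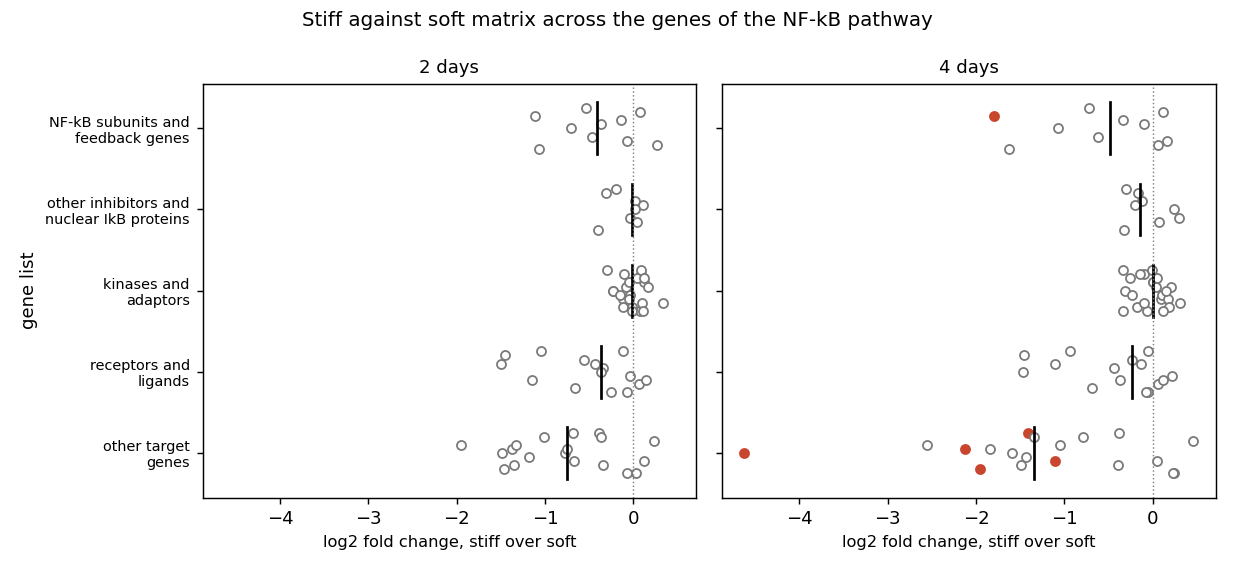
Log2 fold change of the stiff over the soft matrix (horizontal axis) for each tested gene of the 5 lists at 2 days (left) and 4 days (right). Filled red points passed the adjusted threshold and black bars are list medians. The median of the other target genes was -0.75 at 2 days and -1.34 at 4 days, and those of the kinases and adaptors were -0.02 and -0.001.

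From 2 to 4 days, 7 of 23 kinases and adaptors passed on each matrix, a share close to the 27.4% and 27.6% of all genes. Of these, 6 fell and 1 rose on the soft matrix, and 7 fell and 0 rose on the stiff matrix. Of all 14570 genes, 1933 fell and 2052 rose on the soft matrix, and 1990 fell and 2034 rose on the stiff matrix. Of the 8 other inhibitors and nuclear IkB proteins, 2 rose and 2 fell on each matrix. IKBKG, the regulatory subunit of the IkB kinase complex, had log2 fold changes of -1.10 ± 0.14 and -0.80 ± 0.14 on the soft and the stiff matrix (adjusted p = 0.00296 and 0.00755 by edgeR). RNF31, a subunit of the linear ubiquitin ligase complex, had -0.93 and -0.88, and IRAK1, a kinase downstream of interleukin 1 receptors, -0.89 and -0.92. The deubiquitinase genes CYLD and OTULIN rose on both matrices (0.77 and 0.64, and 0.69 and 0.72), and the genes of the nuclear IkB proteins BCL3 and NFKBID fell on both (-0.88 and -0.81, and -0.84 and -0.94). VCAM1 rose on the soft matrix by 2.90 ± 0.40 and had -0.23 ± 0.57 on the stiff matrix (adjusted p = 0.785). The difference between these changes, -3.13 ± 0.69, did not pass by edgeR (adjusted p = 1) and was called by DESeq2.

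Likeness to each gene was described by the Pearson correlation of log2 CPM over the 8 libraries, among 12044 genes. These 8 points share the replicate structure, and high values are easily found among so many genes. The genes most like the mean of the 10 standardized profiles were DHX58 (0.983), MMP2 (0.982), FADS2 (0.980), TNFAIP2 (0.975) and ZNF395 (0.970), of which TNFAIP2 is on the list of other targets. For TRAF1 they were IRF1 (0.997), IRF9 (0.989) and IL4I1 (0.987), for BIRC3 CTSS, OAS2 and COL3A1 (0.976 to 0.982), and for RELB PARP10, HLA-F and ISG20 (0.971 to 0.993). NFKBIA was most like PSMB9, PGAP3 and ING4 (0.972 to 0.977), and NFKB2 most like COL7A1, C19orf66 and SEPT4 (0.978 to 0.980). REL and TNFAIP3, whose stiff 4-day replicates were wide apart, had LRCH3 (0.996) and LHX9 (0.998) as their nearest genes.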

How the data were processed

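RNA-seq libraries of LX-2 cells were grouped by the sample labels into 4 conditions of 2. The authors trimmed reads with Trim Galore, mapped them to hg19 (GRCh37) with STAR 2.7.1a and counted them per gene with HTSeq, and the deposited counts were not normalized. The gene annotation and the strand setting are not given in the sources used here. An FPKM table deposited by the authors covers the same genes, and its ratio to the counts showed scaling by median-of-ratios size factors. The stiffness in kPa was taken from the text of the paper.

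The counts of 14570 genes that passed filterByExpr were fitted with edgeR 4.0.16 in R 4.3.3 by a quasi-likelihood model over all 8 libraries, with 4 conditions, TMM factors between 0.8704 and 1.08 and a common dispersion of 0.0281. The threshold was an adjusted p (Benjamini-Hochberg) of 0.05. CPM are TMM-normalized, and standard errors were derived from the fold change and its F statistic. FPKM served only to compare genes. Totals between 19955975 and 27263935 counts leave counting error large where counts are few (REL among the 10 genes, and VCAM1 and TLR2 among the others named), and 2 libraries per condition limit every comparison. The smallest p of an exact permutation test is above 0.05 at this size, so none was run.

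Alternatives were DESeq2 1.42.0, RLE scaling or none, a low-count filter of only 1 count in total or of 10 counts in every library, limma 3.58.1 on log2(FPKM + 1) with and without a filter of 1 FPKM in 2 libraries and on log2(FPKM + 0.1), fits of single comparisons, a replicate block, an added 2-fold cutoff, and each library left out in turn. Chosen after the data were seen were offsets from a spline (5 degrees of freedom) of log gene length, a fit without the stiff 4-day libraries and a crossed block. The fits were also run on simulated counts, drawn with the same spread per gene in all libraries and no length trend. These counts lack the wide spread and the length trend of the stiff 4-day libraries, so they are no test of the fits under either. The 10 genes and all lists were chosen with earlier results of these data known. Named were the 10 genes, and per list and comparison up to 5 called genes with the smallest adjusted p. Genes of like pattern were the 3 with the highest correlation to each gene, and 5 to their mean, at an average log2 CPM of at least 1. Positions were taken from GENCODE v44lift37.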

Additional observations from a re-analysis of the deposited data

Results flagged for a closer look

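In CPM, the TRAF1 libraries of the 2 days did not overlap on either matrix and lay in opposite orders, although no rise on the soft matrix was shown. Both 4-day libraries lay above both 2-day libraries on the soft matrix (14.8 and 14.2 against 13.6 and 14.0 CPM), and both lay below them on the stiff matrix (4.17 and 4.15 against 5.12 and 7.62 CPM). The log2 fold change was 0.07 ± 0.20 (SE, adjusted p = 0.808 by edgeR) on the soft and -0.61 ± 0.22 on the stiff matrix. The difference between them, -0.69 ± 0.29, did not pass the edgeR quasi-likelihood test (adjusted p = 1), and the soft value was -0.006 with no scaling factors and -0.008 with the length offsets. In the deposited FPKM the soft libraries of the 2 days overlapped (2.97 and 3.05 at 2 days, 3.22 and 3.03 at 4 days).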

How the results depend on the processing

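The number of genes called, out of 10, depended on the setting. Between the matrices at 2 days (0 called), DESeq2 called 1, against 0.196% of all genes. The fit without the stiff 4-day libraries called 4, against 0.814%. The fit of that day's libraries alone called 6, in a fit where 314 genes were higher and 353 lower of 14290. At 4 days (1 called), DESeq2 gave 2, against 1.08% of all genes, and the length offsets 3, against 0.81%. The lack of a low-count filter gave 2, where 9 genes were higher and 38 lower of 20029. With limma on FPKM without a filter it was 0, where 8 were higher and 12 lower. The fit of that day alone gave 0, as it did for all 13888 genes tested. Averaged over both days (2 called), DESeq2 and the length offsets gave 5, against 1.44% and 1.43% of all genes. With limma, a pseudocount of 0.1 gave 1, where 12 genes were higher and 36 lower of 12374. The lack of a filter gave 1 as well, where 13 were higher and 36 lower of 20029. From 2 to 4 days on the soft matrix 1 was called. DESeq2, the filter of 10 counts, limma on log2(FPKM + 1) and the length offsets gave 2. With DESeq2 2182 genes rose and 2247 fell, of 15052. With the filter of 10 counts 1851 rose and 1797 fell, of 12867, and with this limma fit 1783 and 1861, of 12374. With the offsets 3097 genes rose and 3009 fell, of 14570. The separate fit and the fit without the stiff 4-day libraries gave 4. In the separate fit 3543 genes rose and 3718 fell, of 14331, and in the other 54.4% of all genes passed. No scaling, limma with a pseudocount of 0.1 or without a filter and the added 2-fold cutoff gave 0. With no scaling 1438 genes rose and 2130 fell. With the pseudocount of 0.1 1733 rose and 1733 fell, of 12374, and without a filter 1573 and 1762, of 20029. The share of all genes at the 2-fold cutoff is not given here. On the stiff matrix (1 called), no scaling gave 2, where 1305 genes rose and 2313 fell of 14570. The length offsets gave 2, where 3108 rose and 2901 fell. The separate fit gave 0, as it did for all 14069 genes tested, and the 2-fold cutoff gave 0. The cause of these moves was not tested. No scaling also moved the median of all genes from 0.03 to -0.10 for this comparison and from 0.02 to -0.09 between the matrices at 4 days.

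With the replicate block, 0 of the 10 genes were called at 2 days, at 4 days and with time on either matrix. On the averaged effect 1 was called (TRAF1, adjusted p = 0.0339 by edgeR). Of all 14570 genes, this fit called 0 at 2 days, 3 higher and 11 lower at 4 days, and 5 higher and 24 lower averaged. With time it called 1301 higher and 1325 lower on the soft and 1221 and 1322 on the stiff matrix. Same-numbered libraries had correlations of their deviations of -0.04 at 2 days and -0.49 at 4 days, so the numbers were not shown to pair the libraries. With the numbers crossed at 4 days, chosen after the data were seen, 2 of the 10 genes were called at 4 days. In that fit 15 genes were higher and 47 lower of 14570.

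Leaving out each library in turn gave 0 to 4 calls at 2 days, 0 to 7 at 4 days, 0 to 7 averaged, 0 to 4 for the change of the effect, and 0 to 4 and 0 to 6 with time on the soft and the stiff matrix. The highest counts came without a stiff 4-day library, in fits where 0.792 to 0.813% of all genes passed at 2 days, 3.63 to 31.1% at 4 days, 6.83 to 19.8% averaged, 20.9% for the change, and 52.7 to 52.9% and 52.1% with time. The lone library left is then assumed to vary like the other groups. The averaged value ranged from -1.61 to -1.33 for TRAF1, -1.52 to -1.20 for BIRC3, -1.14 to -0.70 for RELB, -0.84 to -0.47 for NFKBIA and -0.65 to -0.46 for NFKB2. These 5 kept their direction in all 19 other settings. They had been singled out because their soft and stiff libraries did not overlap on either day. Leaving out 1 library could then hardly turn them, so those settings were no test of their direction.

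The called list genes named in the text kept their direction in every setting run, but most of their calls were lost in some settings. They had been named for their small adjusted p in these same libraries. The settings were therefore no test of their direction either. The subunit shares were not tested by these settings. Scaling of a library cancels within a share, and leaving out 1 of 2 libraries always moves the mean by less than the replicate spread. A length trend of a library does not cancel. Directions turned in these values. REL turned at 4 days with limma and a pseudocount of 0.1 (-0.33, and -0.27 for the change of its effect). Its averaged value turned to -0.022 with no scaling, -0.029 with the block, -0.012 with the crossed block, -0.017 with limma on log2(FPKM + 1) with and without a filter, -0.192 with a pseudocount of 0.1 and -0.001 with the length offsets. With no scaling, RELA turned at 4 days (-0.005) and in its change of effect (-0.018), TNFAIP3 at 4 days (-0.04) and TRAF1 with time on the soft matrix (-0.006, or -0.008 with the length offsets). Without 1 library, REL ranged at 2 days from -0.14 to 0.007, at 4 days from -3.11 to 1.06, averaged from -1.59 to 0.49 and in its change from -3.04 to 1.14. At 4 days NFKBIE ranged from -0.60 to 0.30 and TNFAIP3 from -0.39 to 0.41 (averaged -0.066 to 0.333). With time on the stiff matrix, BIRC3 ranged from -0.02 to 0.61, NFKBIA from -0.48 to 0.28, NFKBIE from -0.09 to 0.82 and TNFAIP3 from -0.787 to 0.012, and NFKB1 on the soft matrix from -0.15 to 0.10. The change of effect ranged from -0.415 to 0.019 for NFKB1, -0.337 to 0.048 for NFKB2, -0.86 to 0.02 for RELB, -0.58 to 0.16 for NFKBIA, -0.23 to 0.66 for NFKBIE, -0.023 to 0.118 for RELA and -0.65 to 0.16 for TNFAIP3. Depth limits REL and VCAM1, each with 5 counts in 1 library, and TLR2, and 2 libraries per condition limit every call.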

Other observations

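Of the 15 receptors and ligands tested, 3 rose and 1 fell from 2 to 4 days on each matrix, a share close to the 27.4% and 27.6% of all genes called. Of all 14570 genes, 2052 rose and 1933 fell on the soft matrix, and 2034 rose and 1990 fell on the stiff matrix. TLR4, the lipopolysaccharide receptor, rose from 2 to 4 days by 2.04 ± 0.31 (SE, log2 scale) on the soft and 2.01 ± 0.33 on the stiff matrix (adjusted p = 0.00449 and 0.00584, edgeR quasi-likelihood, Benjamini-Hochberg adjusted). TLR2, a receptor for bacterial lipoproteins, had 3 and 4 counts at 2 days and 14 and 18 counts at 4 days on the soft matrix, where it passed (adjusted p = 0.0134). On the stiff matrix it had 1 and 1 counts and then 7 and 3 counts (adjusted p = 0.0536), and the difference between the matrices did not pass (adjusted p = 1). TNFRSF12A, the receptor of TWEAK, fell on both, with -1.19 ± 0.19 and -0.93 ± 0.19. The cytokine gene IL1A rose on both (1.63 and 2.03), and the stiff value was 1.59 without stiff 2-day replicate 1, where the call was lost, and 2.67 without replicate 2. IL1B rose on the stiff matrix (0.75 ± 0.17, adjusted p = 0.0158) and had -0.03 ± 0.16 on the soft matrix, and the difference of 0.78 ± 0.23 did not pass (adjusted p = 1).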
